A study of Mus musculus with 6 samples.

Results

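Hedgehog signalling and primary cilium genes were followed in cultured mouse glioma cells by RNA sequencing. The members were the genes whose symbols begin with or equal a fixed set of names: the Hedgehog receptors Ptch1 and Smo, their coreceptors and surface inhibitors, the Gli factors and Sufu, the intraflagellar transport (IFT) subunits, the dynein-2 motor, the BBSome and its chaperonins, transition zone proteins and the ciliary GTPases Arl13b and Arl3. This choice took 51 of the 12151 genes in the deposited table, and no expression value entered it. GL261, an established mouse glioma line kept in serum, carries the label of differentiated cells of the tumour. The mNS cells carry the label of stem-like cells and were kept as neurospheres without serum, with B-27, heparin and the growth factors bFGF and EGF. Each group had 3 libraries that differed in passage, 17, 33 and 34 for GL261 and 72, 77 and 85 for mNS; the passage field of the third GL261 library reads 33, against 34 in its title. The labels name no transgene, drug or separate culture beyond the passage, so the p-values below measure the spread between these libraries, and cell line, medium and passage range cannot be told apart in the comparison. In these bulk samples fewer cells of a type and less RNA per cell cannot be told apart either.

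The primary cilium is a single, non-motile, microtubule-based projection that most vertebrate cells can form from the mother centriole when they are not dividing. Vertebrate Hedgehog signalling runs through it: without ligand the receptor Ptch1 keeps Smo out of the cilium and Gli3 is processed to a repressor, and with ligand, helped by the coreceptors Cdon, Boc and Gas1, Smo enters the cilium and Gli activators switch on targets that include Ptch1 and Gli1. In the cilium IFT-B trains with kinesin-2 serve outward transport, and IFT-A trains with dynein-2 serve the return. The BBSome moves membrane proteins out, and the transition zone is a gate at the base. Neural progenitors carry primary cilia and receive Hedgehog signals through them.

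Values are normalised CPM (read counts scaled to library depth), and 1 read was worth between 0.0708 and 0.0773 CPM at depths of 12534422 to 14225175 reads in listed genes. Glial markers were present in both groups, with a summed level over 9 genes of 2161 to 2382 CPM in GL261 and 2386 to 2622 CPM in mNS; of the 10 in the list, Sox9 was not listed in the table. Behind these sums 5 of the 9 genes were called higher in mNS and 3 lower, with Olig2 at 8.54 ± 2.97 and 437 ± 22.8 CPM and Sox10 at 392 ± 12.7 and 208 ± 18.5 CPM. Of markers of other cell types, 2 of 8 microglial genes (summed 4.05 to 5.44 CPM in GL261 and 6.87 to 9.51 CPM in mNS), 1 of 6 endothelial genes (24.7 to 42.5 and 26.1 to 31.3 CPM), 3 of 7 fibroblast genes (259 to 424 and 93.8 to 229 CPM) and 2 of 6 neuronal genes (224 to 248 and 12.9 to 18.3 CPM, with Tubb3 called lower in mNS and Syt1 higher) were listed, without Ptprc, Pecam1, Dcn or Rbfox3. Of markers of multiciliated ependyma only Ccdc39 and Rsph1 were listed, at a sum of 2.32 to 2.60 CPM in GL261 and 5.13 to 6.44 CPM in mNS, and Foxj1, Mcidas, Tekt1 and Dnah5 were not. The 6 proliferation markers moved with the groups, summing to 4965 to 5459 CPM in GL261 and 3269 to 3684 CPM in mNS, with Mki67, Top2a, Cdk1 and Pcna called lower in mNS, Mcm2 called higher and Ccnb1 not called; their part in the results below was not tested.

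Members were more often higher than lower in the neurospheres. Of 50 members tested, 28 were called higher in mNS, 5 lower and 17 were not called (limma, adjusted p under 0.05). Over all 12006 genes tested the calls were balanced: 32.2% were called higher, 32.1% lower and 64.3% in either direction, against 56.0%, 10.0% and 66.0% of the members. The median log2 difference, taken as mNS minus GL261 on log2(CPM + 1), was 0.38 over the members and -0.0027 over all genes tested. Differences of at least 0.8 were called for 17 members, 15 of them higher in mNS and 2 lower, where 25.7%, 14.4% and 11.3% of all tested genes passed the same limits. With edgeR on the recovered reads 34 members were called, against 63.7% of all genes tested. The groups did not overlap for 35 members, against 69.9% of all genes tested. The member left untested was Rpgrip1, a photoreceptor cilium protein gene, which had 0.522, 0.149 and 0.506 CPM in GL261 and 1.13, 1.16 and 1.35 CPM in mNS and lay below the limit of a mean of 1 CPM.

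**Figure D1:**
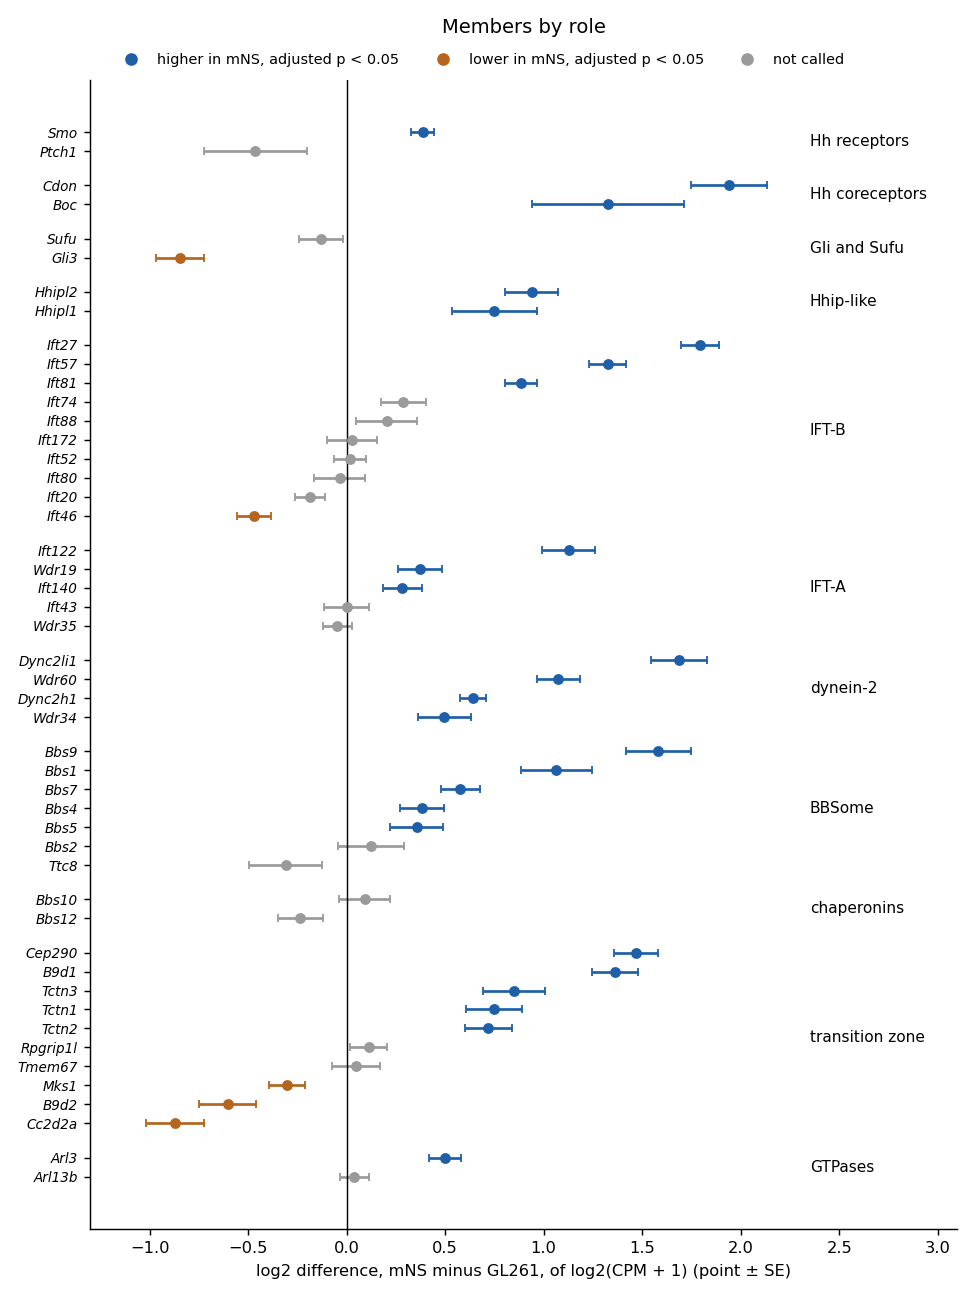
Log2 difference of log2(CPM + 1), mNS minus GL261, of 48 of the 50 members tested, with its standard error, grouped by role; colours mark genes called higher or lower in mNS at an adjusted p under 0.05. Every dynein-2 and coreceptor gene among the members lies to the right of 0, whereas the IFT-B and transition zone genes spread to both sides.

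**Figure D2:**
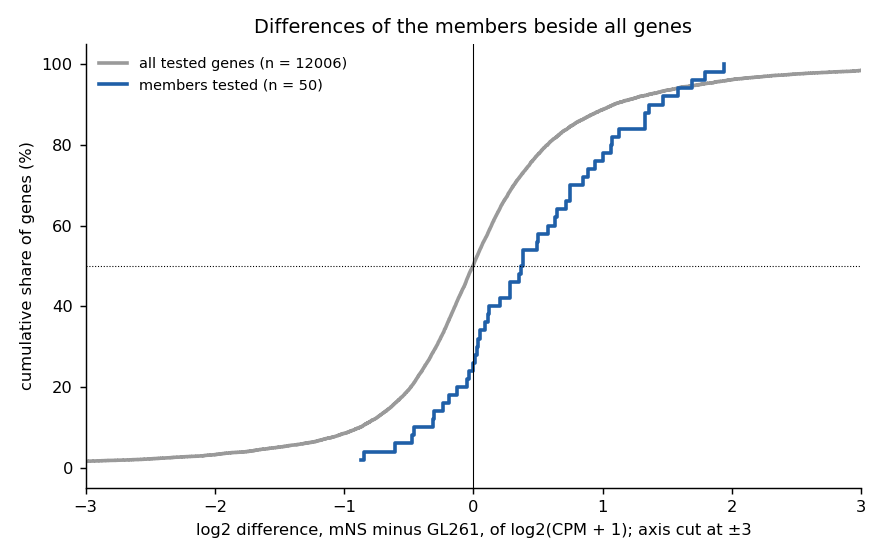
Cumulative share of genes (%) by log2 difference for the 50 members tested and for all 12006 genes tested. The member curve lies to the right of that of all genes over most of the range, with medians of 0.38 and -0.0027.

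At the cell surface the coreceptor genes were higher in the neurospheres and Smo only slightly so. Cdon encodes an immunoglobulin-type coreceptor that binds Hedgehog ligand beside Ptch1 (chromosome 9, 35421128 to 35507652 in GRCm38). It measured 27.0, 20.9 and 20.6 CPM in GL261 and 124, 75.8 and 77.0 CPM in mNS. All mNS libraries lay above all GL261 libraries, and passage 72 stood highest. The group means, 22.8 ± 3.60 and 92.4 ± 27.7 CPM (SD, n = 3 each), differed 4.04-fold, or by 1.94 ± 0.19 on the log2 scale (estimate ± SE, as for all such pairs below; adjusted p = 3.62e-05 by limma). Its relative Boc, which binds the same ligands, was less abundant, with 1.42, 5.46 and 6.94 CPM in GL261 and 13.3, 10.9 and 10.5 CPM in mNS. The groups did not overlap, but GL261 passage 17 lay far below the other GL261 libraries. The log2 difference of Boc was 1.33 ± 0.39 (limma adjusted p = 0.0151), and 0.80 without GL261 replicate 1, the passage 17 library (adjusted p = 0.00214). Gas1, the remaining coreceptor, was not listed in the table and is not analysed here.

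Smo, the membrane protein that carries the signal into the cell, was the most abundant Hedgehog member per exon length (chromosome 6, 29735503 to 29761365). It stood at 23.7 ± 0.890 CPM per kilobase in GL261 and 31.0 ± 0.786 CPM per kilobase in mNS. Its libraries read 127, 137 and 135 CPM in GL261 and 172, 172 and 179 CPM in mNS. The spread within each group was small beside the step between them, a 1.31-fold rise with a log2 difference of 0.39 ± 0.06 (limma adjusted p = 0.000453). Ptch1 encodes the receptor that holds Smo back and is itself a target of the pathway (chromosome 13, 63508328 to 63573598). It measured 50.2, 100.2 and 115 CPM in GL261 and 62.8, 60.1 and 58.1 CPM in mNS. The mNS values lay inside the range of the GL261 values, of which passage 17 was the lowest of all 6 libraries. With all libraries Ptch1 was not called (log2 difference -0.46 ± 0.26, limma adjusted p = 0.148); without GL261 replicate 1 it was lower in mNS, at -0.82 (adjusted p = 5.28e-05), and with array weights at -0.69 (adjusted p = 0.000229). Hhip, the surface inhibitor, was not listed in the table. The pattern also took Hhipl1 and Hhipl2, relatives of Hhip by sequence. Hhipl2 rose from 2.24, 1.87 and 2.24 CPM to 5.28, 5.10 and 4.53 CPM (log2 difference 0.94, adjusted p = 0.000336). Hhipl1 had 1.19, 1.27 and 0.939 CPM in GL261 and 1.59, 3.17 and 3.26 CPM in mNS (0.75, adjusted p = 0.0144), a call that was lost without GL261 replicate 3 (adjusted p = 0.0527), mNS replicate 2 (0.0601) or mNS replicate 3 (0.0507), and after quantile normalisation (0.0611).

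**Figure D3:**
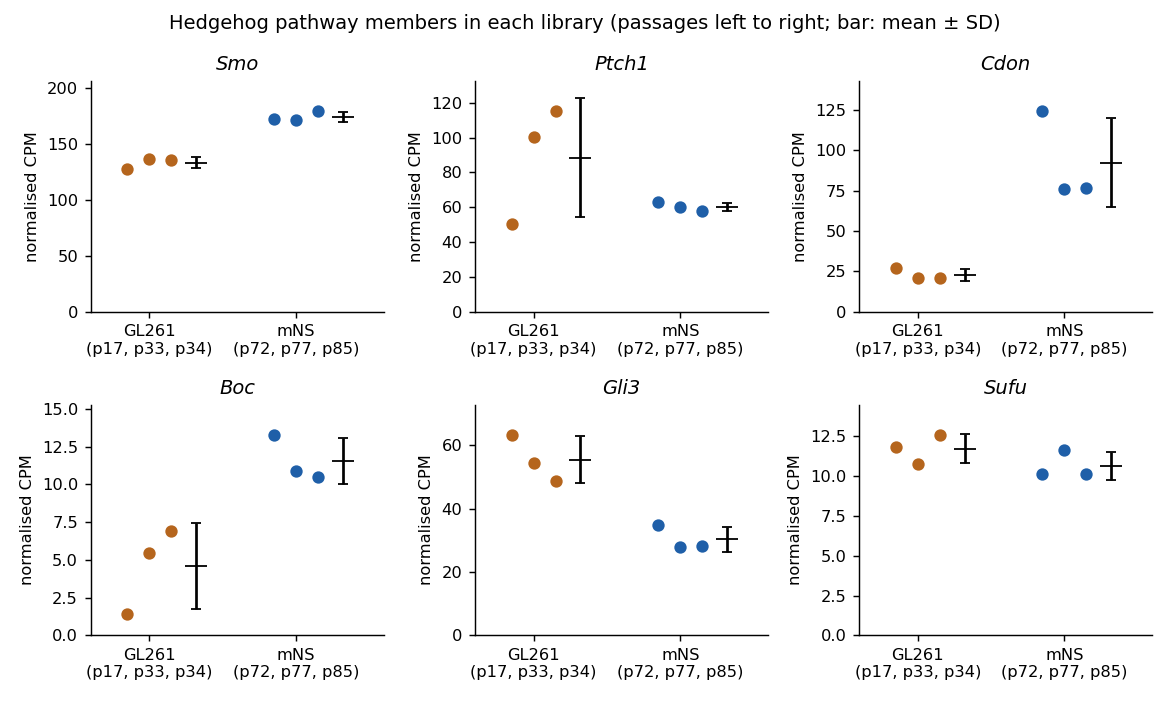
Normalised CPM of 6 Hedgehog pathway members in each library, GL261 at passages 17, 33 and 34 and mNS at passages 72, 77 and 85, with the mean ± SD of each group beside the points. Cdon, Boc and Smo lie higher in mNS and Gli3 lower; the GL261 values of Ptch1 run from 50.2 to 115 CPM and enclose those of mNS.

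Of the transcription factors only Gli3 was listed, and it was lower in the neurospheres. Gli3 is the main Hedgehog repressor in many tissues (chromosome 13, 15463235 to 15730026). It measured 63.4, 54.3 and 48.8 CPM in GL261 and 34.9, 28.0 and 28.3 CPM in mNS. No mNS library reached the lowest GL261 value, and the means differed 1.83-fold (log2 difference -0.85 ± 0.12, limma adjusted p = 0.000346). Sufu, which binds Gli proteins and restrains them, had overlapping values of 11.8, 10.8 and 12.6 CPM in GL261 and 10.1, 11.6 and 10.1 CPM in mNS (-0.13 ± 0.11, adjusted p = 0.341). Gli1, the usual readout of active signalling, and Gli2, the main activator, were not listed in the table and are not analysed here. Exon length was taken over all annotated exons of a gene merged, so an order between genes also depends on the annotation. Per kilobase of exon the pathway's levels in GL261 ordered as Smo, then Ptch1 at 6.24 ± 2.40, Gli3 at 5.79 ± 0.768, Cdon at 2.96 ± 0.467, Sufu at 1.52 ± 0.118 and Boc at 1.03 ± 0.642 CPM per kilobase. Ptch1 and Gli3 there did not differ beyond their spread, nor did Sufu and Boc. In mNS Cdon came second at 12 ± 3.59 CPM per kilobase, ahead of Ptch1 at 4.25 ± 0.168, Gli3 at 3.17 ± 0.407, Boc at 2.60 ± 0.340 and Sufu at 1.38 ± 0.111, where Gli3 and Boc lay within their combined spread.

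Genes around this core moved both ways. Of 9 genes for ligands and their release 5 were listed and tested, of which 1 rose and 3 fell. That is 20% and 60%, against 32.2% higher and 32.1% lower over all tested genes. Dhh, the only ligand gene listed, had 19 ± 2.36 CPM in GL261 and 16.7 ± 2.46 CPM in mNS without a call (adjusted p = 0.268; chosen after its value was seen), and Shh and Ihh were not listed. Scube3, which encodes a secreted protein of a family that helps release lipid-bearing ligand, fell from 38.9, 60.7 and 61.8 CPM to 0.528, 0.232 and 0.0708 CPM. The mNS libraries held 11 reads of it in all, so that the 194-fold ratio is imprecise, and it was 355-fold without mNS replicate 1 (log2 difference -5.41, adjusted p = 1.34e-07). Hhat, the enzyme that adds palmitate to Hedgehog ligands, fell 2.05-fold, and Disp2, a relative of the ligand exporter Disp1, rose from 1.24 ± 0.451 to 3.95 ± 1.01 CPM. Among 12 tested genes of receptor control 6 rose and 5 fell (50% and 41.7%, against the same shares of all tested genes). Efcab7 and Iqce, whose products tether the EVC complex near the ciliary base, went opposite ways: Efcab7 fell 3.99-fold and Iqce rose 2.14-fold. Arrb1, an arrestin, rose 2.21-fold.

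Below Smo 2 of 15 tested genes rose and 6 fell (13.3% and 40%, against 32.2% and 32.1% of all tested genes). The kinase gene Csnk1a1, whose product phosphorylates Gli proteins, fell from 434 ± 48.3 to 214 ± 19.7 CPM, and Spop, the adaptor of a ubiquitin ligase for Gli2 and Gli3, fell 1.80-fold. Stk36, a relative of the fly kinase Fused, rose 3.21-fold from 1.43 ± 0.0595 CPM. Of 11 tested genes described as Hedgehog targets in one tissue or another 4 rose and 3 fell. These shares, 36.4% and 27.3%, were near those of all tested genes. Spp1 (osteopontin) rose 12.3-fold to 87.9 ± 22.9 CPM. Osr2 went from 7 reads over the GL261 libraries to 334 over the mNS libraries, and the Notch ligand gene Jag1 fell 4.20-fold. Both Ccnd1, from 984 ± 28.2 to 2422 ± 56.5 CPM, and Nkx2-2, from 2.88 ± 0.556 to 4.17 ± 0.280 CPM, were also called higher; they were named after their values were seen. These genes answer to many other signals too. The lists were drawn up with earlier results of these data known. Over all the lists of other pathway and cilium genes, 130 genes were tested, with a median log2 difference of 0.17. Of these, 53 (40.8%) were called higher and 37 (28.5%) lower, against 32.2% and 32.1% of all tested genes.

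IFT-B, the larger train complex, split by subunit. Of 10 subunit genes tested 3 rose, 1 fell and 6 were not called, with a median log2 difference of 0.12. That is 30% higher and 10% lower, against 32.2% and 32.1% of all genes tested, so the share of rises was near that of all genes. Ift27, a small GTPase at the edge of the complex that links it to BBSome exit, showed the largest difference (chromosome 15, 78159463 to 78174107). It went from 13.1, 14.6 and 12.2 CPM in GL261 to 45.1, 49.1 and 51.4 CPM in mNS, a 3.65-fold rise with no overlap (log2 difference 1.79 ± 0.10, limma adjusted p = 1.06e-06). Ift57, a peripheral subunit, rose from 19.7, 23.2 and 23.1 CPM to 56.2, 53.5 and 59.97 CPM (log2 difference 1.32 ± 0.09, adjusted p = 4.74e-06). The tubulin-binding core subunit Ift81 rose from 20.4, 22.0 and 20.4 CPM to 39.8, 38.4 and 40.3 CPM (0.89 ± 0.08, adjusted p = 2.06e-05). Its partner Ift74 overlapped between the groups at 28.0, 26 and 29.3 CPM against 38.4, 35.4 and 29.0 CPM (0.29, adjusted p = 0.0541), and it was called higher without mNS replicate 3 (adjusted p = 0.0108), with columns rescaled to a common sum (0.0194), by edgeR (0.0470) and with array weights (0.000761). Ift46 was the subunit that fell, from 43.6 ± 3.4 to 31.1 ± 1.49 CPM (-0.47, adjusted p = 0.00142).

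The remaining subunit genes were not called. Ift88, whose loss removes cilia, had 22.1 ± 4.58 and 25.3 ± 2.75 CPM (adjusted p = 0.278, and 0.0176 with array weights), the core subunit Ift52 had 37.5 ± 0.573 and 38.0 ± 2.70 CPM, and the large subunit Ift172 had 69.8 ± 9.97 and 71.1 ± 9.56 CPM. Ift80 differed by -0.03 on the log2 scale and Ift20 by -0.19 (adjusted p = 0.0622), although the values of Ift20 did not overlap; Ift20 was called lower when libraries were centred on the median gene (adjusted p = 0.0412) or quantile normalised (0.0462). Of 9 further train genes tested under other symbols 6 rose and 2 fell (66.7% and 22.2%, against 32.2% and 32.1% of all tested genes). Rabl5, an older name of Ift22, rose 2.08-fold. Ttc21b, an IFT-A subunit, rose from 45.2 ± 2.60 to 82.9 ± 9.75 CPM. Tulp3, the adaptor that brings receptors such as Gpr161 into the cilium with IFT-A and acts as a brake on the pathway, stood at 194 ± 5.78 CPM in GL261 and fell 3.85-fold to 50.5 ± 2.24 CPM in mNS (limma adjusted p = 5.82e-08).

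In return transport the 4 dynein-2 genes among the members all rose, and the IFT-A genes did not all follow. Over all tested genes 32.2% were called higher. Dynein light chains are in a separate list below, in which Dynlrb1 was called lower in mNS. Dync2li1, the light intermediate chain (chromosome 17, 84626496 to 84655588), rose from 9.54, 7.18 and 10.8 CPM to 29.1, 32.3 and 32.9 CPM (3.43-fold; log2 difference 1.69 ± 0.14, limma adjusted p = 1.39e-05). The intermediate chain gene Wdr60 rose from 6.93, 8.30 and 8.16 CPM to 16.9, 17.2 and 18.4 CPM (1.07 ± 0.11, adjusted p = 4.65e-05). The heavy chain Dync2h1 rose 1.57-fold to 78.5 ± 2.56 CPM and Wdr34, the other intermediate chain, 1.43-fold to 22.2 ± 2.47 CPM. No GL261 library reached the mNS range of any of these genes. Of 5 IFT-A genes 3 rose, against the same 32.2% of all tested genes. Ift122, a core subunit, rose from 14.1, 17.9 and 21 CPM to 37.8, 38.7 and 41.1 CPM (1.13 ± 0.14, adjusted p = 0.000116), with passage 17 the lowest library. Wdr19 (0.37, adjusted p = 0.0173) and Ift140 (0.28, adjusted p = 0.0329) rose by less, and their calls were lost when some of the libraries were left out: Wdr19 had an adjusted p of 0.0521 without GL261 replicate 2, 0.0588 without mNS replicate 2 and 0.0601 without mNS replicate 3, and Ift140 had 0.0779 and 0.0865 without GL261 replicates 1 and 2 and 0.0583, 0.112 and 0.0578 without mNS replicates 1, 2 and 3. Wdr35 and Ift43 were not called, at 33.8 ± 0.479 and 32.6 ± 0.308 CPM and at 25.2 ± 2.97 and 25.2 ± 2.15 CPM.

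Among 10 tested genes of the outward motor kinesin-2 and of dynein light chains 2 rose and 3 fell. That is 20% and 30%, against 32.2% higher and 32.1% lower over all tested genes. Kif3a, the motor subunit needed for ciliogenesis, rose from 34 ± 1.48 to 90.1 ± 4.63 CPM (log2 difference 1.38, adjusted p = 9.01e-07). Kifap3, the subunit that links the motor to cargo, was called lower, with 69.2 ± 4.03 CPM in GL261 and 46.2 ± 1.78 CPM in mNS (picked once its level was known), and Kif3b and Kif3c were not called. The light chain gene Dynlt3 rose 2.08-fold and Dynlrb1 fell 1.79-fold; these chains also serve cytoplasmic dynein.

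The BBSome carries signalling receptors out of the cilium, and 5 of its 7 genes listed rose, where 32.2% of all tested genes did. Bbs9, a scaffold subunit (chromosome 9, 22475715 to 22888280), rose from 7.60, 4.93 and 7.30 CPM to 20.8, 24.6 and 19.3 CPM (3.26-fold; log2 difference 1.58 ± 0.17, limma adjusted p = 5.11e-05). Bbs1, the subunit that contacts the GTPase Arl6, rose from 2.31, 4.11 and 3.76 CPM to 8.76, 7.58 and 7.79 CPM (1.06 ± 0.18, adjusted p = 0.000864). Bbs7 rose 1.52-fold, and the groups did not overlap for any of these genes. Bbs4 (0.38, limma adjusted p = 0.0168) and Bbs5 (0.36, limma adjusted p = 0.0438) rose by less. Their calls lay near the threshold and were lost when any 1 of several libraries was left out. Leaving out GL261 replicate 3 gave Bbs4 an adjusted p of 0.0530, and leaving out mNS replicates 2 and 3 gave 0.0528 and 0.0601; that of Bbs5 was 0.0645, 0.0608 and 0.135 without GL261 replicates 1, 2 and 3, and 0.0958 and 0.169 without mNS replicates 1 and 2. Quantile normalisation ended both calls (0.0972 for Bbs4 and 0.191 for Bbs5), and that of Bbs5 was also lost with centring on the median gene (0.0563) and with DESeq2 on the recovered reads (0.0694). Bbs2 was not called at 11.5 ± 2.54 and 12.5 ± 1.39 CPM.

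Ttc8, the gene of subunit BBS8, had 11.8, 9.42 and 8.09 CPM in GL261 and 9.74, 7.35 and 6.09 CPM in mNS. Its groups overlapped and it was not called (adjusted p = 0.175), though it was called lower without mNS replicate 1 (-0.47, adjusted p = 0.0460) and with array weights (-0.29, adjusted p = 0.0225). The chaperonin-like genes Bbs10 and Bbs12, which help assemble the complex, stood at 9.55 ± 0.332 and 10.3 ± 1.64 CPM and at 34.8 ± 3.12 and 29.5 ± 3.86 CPM. Neither was called; Bbs12 was called lower without mNS replicate 3 (-0.33, adjusted p = 0.0374) and with array weights (-0.31, adjusted p = 0.00166). Of 6 further genes of this system 3 rose and 1 fell (50% and 16.7%, against 32.2% and 32.1% of all tested genes). Arl6, the GTPase that recruits the BBSome to membranes, rose 1.78-fold, Lztfl1, a regulator of its traffic, 1.84-fold, and the small subunit gene Bbip1 1.37-fold (adjusted p = 0.0119, and 0.0561 without mNS replicate 2).

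**Figure D4:**
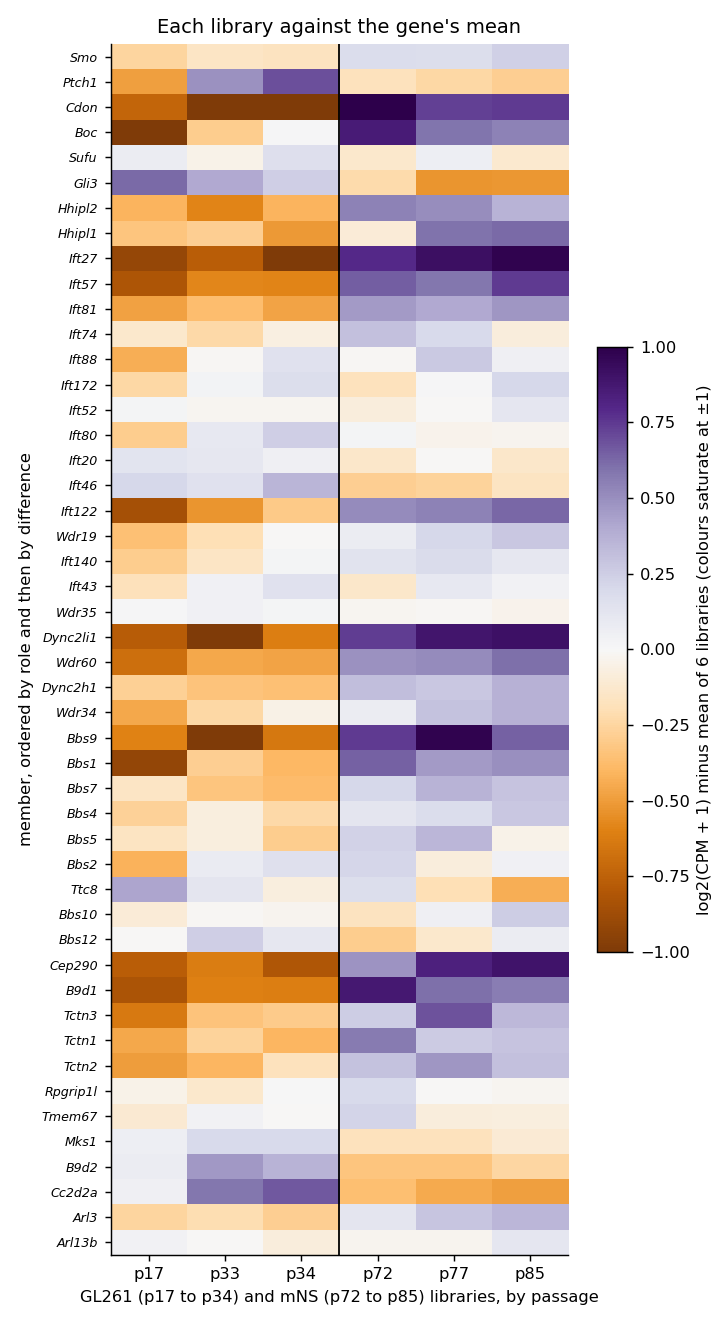
Each of 48 tested members (rows, ordered by role and then by difference) in each library (columns, by passage) as log2(CPM + 1) minus the gene's mean over the 6 libraries; orange is below and purple above the mean, and colours saturate at 1 in either direction. Most rows change colour at the line between GL261 and mNS, as would most genes of the data. Among the 50 members tested the groups did not overlap for 35, against 69.9% of all tested genes. Ptch1, Boc and Cc2d2a also differ between GL261 passage 17 and the later GL261 passages.

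The transition zone genes gave calls in both directions. Of 12 tested 7 rose, 3 fell and 2 were not called, a median log2 difference of 0.67. The shares were 58.3% higher and 25% lower, against 32.2% and 32.1% of all tested genes. Cep290, the long coiled-coil protein that bridges microtubules and membrane at the gate (chromosome 10, 100487558 to 100574840), rose from 54.8, 60.8 and 53.4 CPM to 132, 168 and 176 CPM (2.82-fold; log2 difference 1.47 ± 0.11, limma adjusted p = 7.52e-06). No GL261 library came near the lowest mNS library. B9d1, a member of the Meckel syndrome (MKS) module, rose from 11.0, 12.9 and 12.9 CPM to 37.8, 31.3 and 30.2 CPM (1.36 ± 0.12, adjusted p = 1.58e-05).

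The 3 tectonic genes, whose products are secreted or membrane proteins of the MKS module, all rose. Tctn3 went from 4.55, 5.83 and 6.00 CPM to 9.29, 12.8 and 9.91 CPM (0.85 ± 0.16, adjusted p = 0.00143). Tctn1 and Tctn2 rose 1.92-fold and 1.70-fold. Part of Tctn1's exons, 19% of their length, overlaps Hvcn1 on the opposite strand, and no source used here gives the strand setting of the counting.

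Cc2d2a fell with its module partners B9d2 and Mks1. Cc2d2a, a scaffold of the same module (chromosome 5, 43662346 to 43740972), measured 82.5, 119.8 and 127 CPM in GL261 and 61.5, 58.0 and 56.4 CPM in mNS (log2 difference -0.87 ± 0.15, limma adjusted p = 0.000880). All GL261 libraries lay above all mNS libraries, passage 17 the nearest to them. B9d2, which pairs with B9d1, went the other way from it, from 4.32, 5.98 and 5.49 CPM to 3.02, 3.02 and 3.26 CPM (-0.60, adjusted p = 0.00589). Mks1 was lower by a small margin, 21 ± 1.19 against 16.8 ± 0.466 CPM (-0.30, adjusted p = 0.0183), a call lost when columns were rescaled to a common sum (0.0673) and without GL261 replicate 2 (0.0671), GL261 replicate 3 (0.0609) or mNS replicate 2 (0.0678). Rpgrip1l and Tmem67 were not called, at 27.6 ± 1.34 and 29.98 ± 2.68 CPM and at 12.6 ± 0.713 and 13.1 ± 1.74 CPM. In 15 further gate and inversin compartment genes 7 rose and 3 fell (46.7% and 20%, against 32.2% and 32.1% of all tested genes). Ahi1, Iqcb1 and Rpgr, all genes of inherited ciliary disease, rose 3.36-fold, 3.04-fold and 3.61-fold.

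The GTPase Arl3 acts in the delivery of lipid-anchored ciliary proteins, and Arl13b is its activator. Arl3 rose from 40.6, 41.9 and 39.6 CPM to 53.0, 59.2 and 61.9 CPM, 1.43-fold (log2 difference 0.50 ± 0.08, limma adjusted p = 0.000680). Arl13b, a common marker of the ciliary membrane, had overlapping values of 60.2, 58.5 and 55.3 CPM and 57.6, 57.7 and 63.6 CPM (0.04 ± 0.07, adjusted p = 0.671). Of 11 genes of the same traffic 5 rose and 4 fell (45.5% and 36.4%, against 32.2% and 32.1% of all tested genes). The carrier gene Unc119 rose 3.15-fold, Rp2h, which encodes the protein that switches Arl3 off, 2.64-fold, and the small GTPase gene Rabl2 3.44-fold.

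Genes that prepare the mother centriole leaned towards mNS. Of 15 tested 9 rose and 2 fell, with a median log2 difference of 0.44. That is 60% higher and 13.3% lower, against 32.2% and 32.1% of all tested genes. Azi1, the older name of Cep131, rose from 8.86 ± 0.200 to 30.6 ± 3.85 CPM, and Cep164, which anchors the centriole to membrane, rose 1.95-fold. Ofd1, a centriole and satellite protein gene, fell 2.07-fold. Of 8 genes that drive cilium disassembly 2 rose and 4 fell (25% and 50%, against the same shares of all tested genes). Hdac6, the tubulin deacetylase, rose from 27.8 ± 1.51 to 102 ± 9.66 CPM (log2 difference 1.83), and Kif24, a kinesin that keeps cilia from forming, rose 1.97-fold. Nedd9, an activator of Aurora A, fell 3.45-fold, and Aurka itself, also a mitotic gene, was called lower, with 225 ± 17.1 CPM in GL261 and 136 ± 4.63 CPM in mNS (again picked once its level was known).

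Of 7 genes for membrane receptors and enzymes of the primary cilium 4 were listed and tested. Of these 4, 2 rose (50%), 0 fell and 2 were not called, against 32.2% higher and 32.1% lower over all tested genes. The 2 that rose were polycystin genes, whose products form a channel complex on the cilium. Pkd1 rose from 74.1 ± 2.90 to 240.5 ± 15.0 CPM and Pkd2 from 66.8 ± 5.06 to 95 ± 6.33 CPM. From a list of RFX family and ciliogenesis transcription factors 5 genes were tested. Of these, 2 rose (40%), Rfx7 1.38-fold and Rfx5 1.31-fold. Both were listed as RFX family members, and a role of theirs in cilia was not tested. By limma 0 fell (0 also at an unadjusted p under 0.05, and 0 by edgeR or DESeq2). Rfx3, the best known RFX factor of cilia, was not called at 29.7 ± 2.51 and 33.6 ± 3.52 CPM (also picked once its level was known). Of 19 genes of the motile axoneme 4 were listed and tested. Dnaic2, a dynein arm gene, fell from 9.36 ± 4.27 to 1.72 ± 0.824 CPM, Ccdc40 rose 1.93-fold and Ccdc39 rose from 1.03 ± 0.119 to 3.51 ± 0.593 CPM.

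Within GL261 the passage 17 library stood apart for several members. Of all 51 members 34 had a higher mean at passages 33 and 34 than at passage 17, with a median log2 difference of 0.11; over all tested genes 6086 of 12006 did, with a median of 0.0038. Boc differed most, by 1.57 on the log2 scale, then Ptch1 by 1.08, Bbs1 and Cc2d2a by 0.57 each, Bbs2 by 0.54 and Ift88 by 0.50. Passages 33 and 34 differed by at most 0.30 for these genes. Within mNS the widest ranges were those of Hhipl1 (0.72), which was low at passage 72, and Cdon (0.71), which was high there. A single library per passage gives no test of these differences. The median range over the 3 libraries of a group was 0.24 in GL261 and 0.19 in mNS for the members, and 0.22 and 0.20 for all tested genes.

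Many ciliary genes carry an X-box, the paired motif that RFX factors bind, near their start sites, and the members' promoters were searched for it. The X-box was taken as GTTNCC and GGNAAC with 0 to 3 bases between them, a form that reads the same on both strands, and a single arm as GTTGCC on either strand, which overlaps the X-box wherever its outer arm has these letters. RefSeq windows of 300 bases (250 before the start site, GRCm38.p6) were found for 43 members, 36 of them ciliary, with 37 windows. An X-box lay in 5 of these 37 windows (13.5%), against 0.882% of 12244 windows of all tested genes and 0.804% of 32851 windows in the whole collection. A single arm lay in 17 of 37 (45.9%), against 12.6% and 12.5%. The genes with an X-box were Ift57, Tctn3, Tctn1, Bbs7 and Mks1, of which the first 4 rose and Mks1 fell. By call, 11 of 18 ciliary genes that rose and 6 of 18 others had a single arm in a window. The others hold both genes that fell and genes not called. The same split was not made over all tested genes, and a link between arm and call was not tested.

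The 4 X-boxes that lie before the RefSeq start site are shown with their surroundings. The choice of names did not use this motif, and most members lacked it (found in 5 of 43 with a window). Capitals mark the X-box, and each sequence reads 5′ to 3′ on the gene's strand. In GENCODE M21, the source of the gene positions above, Ift57 starts at 49699233. Its X-box therefore lies just inside that gene model. Ift57 lies at chr16:49699210-49699269 on the plus strand, Tctn3 at chr19:40612336-40612395 on the minus strand, Bbs7 at chr3:36613474-36613533 on the minus strand and Mks1 at chr11:87853155-87853214 on the plus strand, all in GRCm38.p6.
Ift57: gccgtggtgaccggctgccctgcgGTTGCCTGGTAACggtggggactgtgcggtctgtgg
Tctn3: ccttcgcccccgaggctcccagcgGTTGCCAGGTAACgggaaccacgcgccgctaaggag
Bbs7: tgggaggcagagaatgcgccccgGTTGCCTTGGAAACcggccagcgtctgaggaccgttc
Mks1: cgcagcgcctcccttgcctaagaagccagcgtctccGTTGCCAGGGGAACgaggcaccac
All 4 open with the same arm, GTTGCC. The arms of Ift57 and Tctn3 have 1 base between them and those of Bbs7 and Mks1 have 2.

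Among genes with a single arm, Ift27, the IFT-B member with the largest rise, had it directly before its RefSeq start site, 3 bases away. In GENCODE M21 the gene reaches 78174107, so the arm lies inside that gene model. The stretch lies at chr15:78174082-78174141 on the minus strand and is shown with the arm in capitals.
Ift27: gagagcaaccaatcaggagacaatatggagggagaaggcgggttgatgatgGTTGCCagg
No window of a Hedgehog member held an X-box or an arm, with windows for 5 of the 6. The Gli motif GACCACCCA, on either strand, was in 0 of 45 windows of members and in 0.212% of windows of all tested genes. These matches are letters in a window and no measure of binding, and the Gli motif may lie outside a window of this length.

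**Figure D5:**
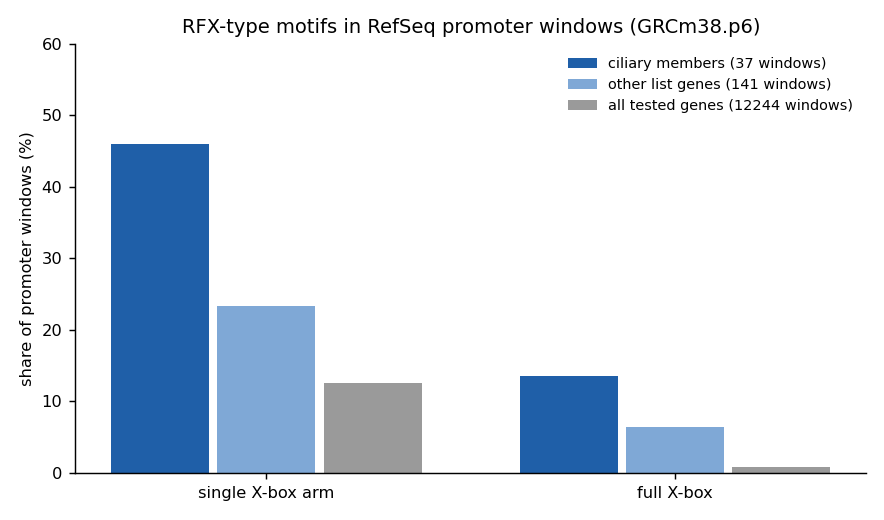
Share of RefSeq promoter windows (%) that hold a single X-box arm or a full X-box, for ciliary members, for the genes of the other pathway and cilium lists and for all tested genes. Bars of ciliary members stand at 45.9% and 13.5%, those of the other lists at 23.4% and 6.38%, and those of all tested genes at 12.6% and 0.882%.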

How the data were processed

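RNA sequencing values of 3 GL261 and 3 mNS libraries were analysed. The deposited signal per gene is normalised CPM; per the submitters' processing notes TopHat2, HTSeq 0.5.3p9, edgeR 3.4.2 and mm10 were used by the authors. No source used here says how low genes were removed. Values fell on steps of single reads, and 100% gave whole reads within 0.001; the lowest gene had 46 reads over the 6 libraries.

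The comparison was fitted on log2(CPM + 1) with limma 3.58.1 (trend) in R 4.3.3 over 12006 genes (those averaging 1 CPM or more), with Benjamini-Hochberg adjustment over all of them and calls at 0.05; fold changes on this scale understate those of low genes. The script was tested on simulated data. Alternatives were edgeR 4.0.16 and DESeq2 1.42.0 on the recovered reads, other pseudocounts, filters, scalings and weights, and each library left out. Positions and exon lengths (all exons of a gene merged) are from GENCODE M21, promoters from RefSeq. The members, lists and rules were chosen with earlier results of these data known. By rule, each library is given for all Hedgehog members and for ciliary members called with an absolute log2 difference of at least 0.8, and up to 3 called genes of each other list, those with the largest differences, are named; further list genes are marked as picked once their values were known. Some members count in the totals but are not reported here by name.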

Additional observations from a re-analysis of the deposited data

How the results depend on the processing

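Of the 33 called members 27 kept their call under every alternative in which they were tested (17, or 16 for B9d2, Hhipl2 and Tctn1, which a higher filter removed), a stricter threshold and a 2-fold null aside, and no called member changed sign. With any 1 library left out, 23 to 26 members were called higher (28 with all) and 4 to 6 lower (5 with all), the member median was 0.35 to 0.41, and all tested genes gave 3320 to 3908 higher and 3283 to 3873 lower; the other lists gave 49 to 53 higher and 33 to 40 lower. The member median was 0.46 with columns rescaled to a common sum and 0.29 after quantile normalisation; the common sum gave 4460 genes higher and 3197 lower over all genes, against 3865 and 3849, and 29 and 4 members. Array weights called 30 members higher and 8 lower, with 4682 and 4806 of all genes, and Sufu changed sign, to 0.014 (limma adjusted p = 0.881); the cause was not tested. Against a 2-fold null (limma treat), which asks for larger differences by construction, 6 members were called higher and 0 lower, 793 and 621 of all genes, and 12 and 5 of the other lists. edgeR called 34 members, 33 of them as limma did. Members of few reads, such as Rpgrip1 and Hhipl1, are limited by depth. No paired analysis was possible because replicate numbers only follow the order of deposit and the passages differ between groups.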
